A study of Mus musculus with 6 samples.

Results

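The heat shock chaperone genes are 10 genes that encode the main stress-inducible and constitutive protein-folding machines of the cell. They were taken by gene symbol, as inducible and constitutive chaperones, and all 10 were among the 23420 genes of the count tables and among the 16604 tested. They were followed in palate of C57BL/6 mouse embryos at E14.5, dissected where the anterior hard palate would form. The control embryos were Shox2Cre/+;Nkx2.5F/F and the mutant embryos Shox2Cre/-;Nkx2.5F/F, with 3 RNA sequencing libraries per genotype. Both genotypes therefore carried a Cre at the Shox2 locus and a floxed Nkx2-5 gene on both chromosomes, so the controls were not wild type, and Cre activity follows the cells that use Shox2. Whether libraries were made from single or pooled embryos is not stated, and p-values measure only the spread between these libraries.

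Heat shock proteins bind unfolded or newly made proteins and help them fold. The cytosolic HSP70 proteins work with J-domain partners (HSP40), which deliver clients, and with HSP110 proteins, which exchange their nucleotide. HSP90 completes the folding of kinases and hormone receptors, small heat shock proteins hold clients without using ATP, HSP60 folds proteins inside mitochondria, and BiP does so in the endoplasmic reticulum. Heat and other proteotoxic stress switch on part of these genes through HSF1, a transcription factor that binds inverted GAA repeats, while the unfolded protein response of the endoplasmic reticulum drives BiP through a different element.

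Shox2 itself checked the labels. It was at 68.2 to 88.2 CPM (counts scaled to library size, with the TMM factor) in the controls and at 3.13 to 5.3 CPM in the mutants. Total counts ran from 81950407 to 134813429 in the controls and from 52668242 to 53331397 in the mutants, so every control was deeper than every mutant. Among counts from 5 to 50, even numbers made up 63.6% to 73% in 5 libraries and 99.7% in mutant replicate 1, as if mates of a pair had been counted one by one, so counting error is understated. All 9 listed markers of palate mesenchyme were detected, with a summed level of 7479 to 12999 CPM in the controls and 10785 to 11672 CPM in the mutants. Of these 9, 3 were called lower (Msx1, Pdgfra and Twist1), 1 higher (Alx1) and 5 neither way, and Msx1 had the largest change of them (-2.07). Markers of several other cell types differed between the groups, beside 24.1% of all tested genes called higher and 21.7% lower. All 14 epithelial markers were called higher in the mutant, with a summed level of 1186 to 1969 CPM in the controls and 6457 to 7374 CPM in the mutants. Of 11 macrophage markers 10 were called higher, with sums of 89.3 to 153 and 359 to 467 CPM. Red blood cell markers summed to 213 to 639 and 25.7 to 38.4 CPM, with 3 of 5 tested members lower. The adult alpha globins Hba-a1 and Hba-a2 were at 0 in every library. How reads shared between genes were counted is not stated, so these 0 values may not show the level of the 2 genes. Muscle markers summed to 11.6 to 77 and 7.8 to 12.2 CPM, with 5 of 8 tested members lower, and nerve and glia markers to 76.8 to 143 and 55.3 to 96.4 CPM, with 3 of 7 lower. None of 7 endothelial markers was called by edgeR, DESeq2 or limma-voom, and 0 had an unadjusted edgeR p under 0.05. In bulk tissue a change in the number of cells of a type cannot be told apart from a change in RNA per cell, and the part of these other cells in the results on chaperones was not tested.

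Promoter sequences of genes that changed are shown because the classical regulators of this family act there. RefSeq promoter windows (build GRCm38.p6) were matched for 7 of the 10 genes, all but Hspa8, Hsp90aa1 and Hsp90ab1. Each sequence is the coding strand, 5′ to 3′. For the first 3 it is the 150 bases that end at the base before the transcription start, at chr17:34972157-34972306 (minus strand), chr17:34959239-34959388 (minus strand) and chr5:135887769-135887918 (plus strand). Capitals mark a pair of facing heat shock units, GAANNTTC or TTCNNGAA.
Hspa1a: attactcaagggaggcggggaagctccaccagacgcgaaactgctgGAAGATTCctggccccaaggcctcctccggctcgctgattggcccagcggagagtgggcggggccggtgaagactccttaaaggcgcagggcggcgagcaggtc
Hspa1b: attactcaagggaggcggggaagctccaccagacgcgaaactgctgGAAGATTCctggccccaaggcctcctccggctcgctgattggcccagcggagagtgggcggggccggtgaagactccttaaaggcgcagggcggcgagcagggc
Hspb1: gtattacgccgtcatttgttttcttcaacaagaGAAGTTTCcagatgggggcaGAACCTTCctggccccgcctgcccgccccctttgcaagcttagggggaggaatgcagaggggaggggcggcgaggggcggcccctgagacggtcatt
The last pair are short sites of genes that fell, at chr1:55088053-55088082 (minus strand) for Hspd1 and chr2:34772020-34772048 (plus strand) for Hspa5. Capitals mark the heat shock units in Hspd1 and, in Hspa5, the element of the endoplasmic reticulum stress response, CCAAT and CCACG with 9 bases of any kind between them. Both sites lie upstream of a RefSeq start (55087932 for Hspd1, 34772090 for Hspa5) but wholly within annotated GENCODE exons. For Hspd1, its own exons and those of Hspe1, which overlaps it on the opposite strand, were not told apart in this.
Hspd1: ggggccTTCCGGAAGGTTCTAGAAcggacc
Hspa5: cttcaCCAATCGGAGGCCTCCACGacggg

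Both strands of the 250 bases before each RefSeq start were searched, and some of these windows overlap annotated exons. A pair of facing units was in 6 of the 10 windows of these 7 genes, and in 12.8% of all 32851 promoter windows. Counted by gene, 5 of the 7 had it in a window (Hspa1a, Hspa1b, Hspb1, Hspd1 and Hsph1). Both windows of Hsph1 hold the same site. The stricter run of 3 units, GAANNTTC followed after 2 bases by GAA, or its reverse complement, holds such pairs within it. It was found for Hspd1 alone among the 7, in 1 of the 10 windows, and in 0.466% of all windows. For Hspd1 these matches were in the window of the start at 55087932, of which all 250 bases are exonic in GENCODE, and the window of its other start at 55088243 held none. The Hsph1 match also lies largely in an annotated exon, with 26 of the 30 bases around it. The stress element of the endoplasmic reticulum was found among the 7 for Hspa5 alone, in 1 of the 10 windows, and in 0.113% of all windows. A match describes letters in a window, not a site in use. The heat shock units were thus in windows of genes that rose (Hspa1a, Hspa1b, Hspb1), one that fell (Hspd1) and one that did not pass the test (Hsph1). Over the 250 bases the windows of Hspa1a and Hspa1b differed at 3 positions, and over the 150 bases shown at 1.

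Of the 10 chaperone genes, 4 rose, 3 fell and 3 did not pass the test (edgeR quasi-likelihood test, Benjamini-Hochberg adjusted p over all 16604 genes, threshold 0.05). Across all tested genes 24.1% were called higher, 21.7% lower and 45.8% in either direction, so many calls among any 10 genes would be found in these data. The genes that rose were the inducible HSP70 pair Hspa1a and Hspa1b, the small heat shock protein gene Hspb1 and the inducible HSP90 gene Hsp90aa1. The genes that fell were the constitutive HSP70 gene Hspa8, the BiP gene Hspa5 and the HSP60 gene Hspd1. Hsp90ab1, Hsph1 and Dnajb1 did not pass. The median log2 fold change was -0.07 over the 10 genes and 0 over all genes tested. The summed level of the 10 genes was 6263 to 6445 CPM in the controls and 5619 to 5950 CPM in the mutants.

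**Figure D1:**
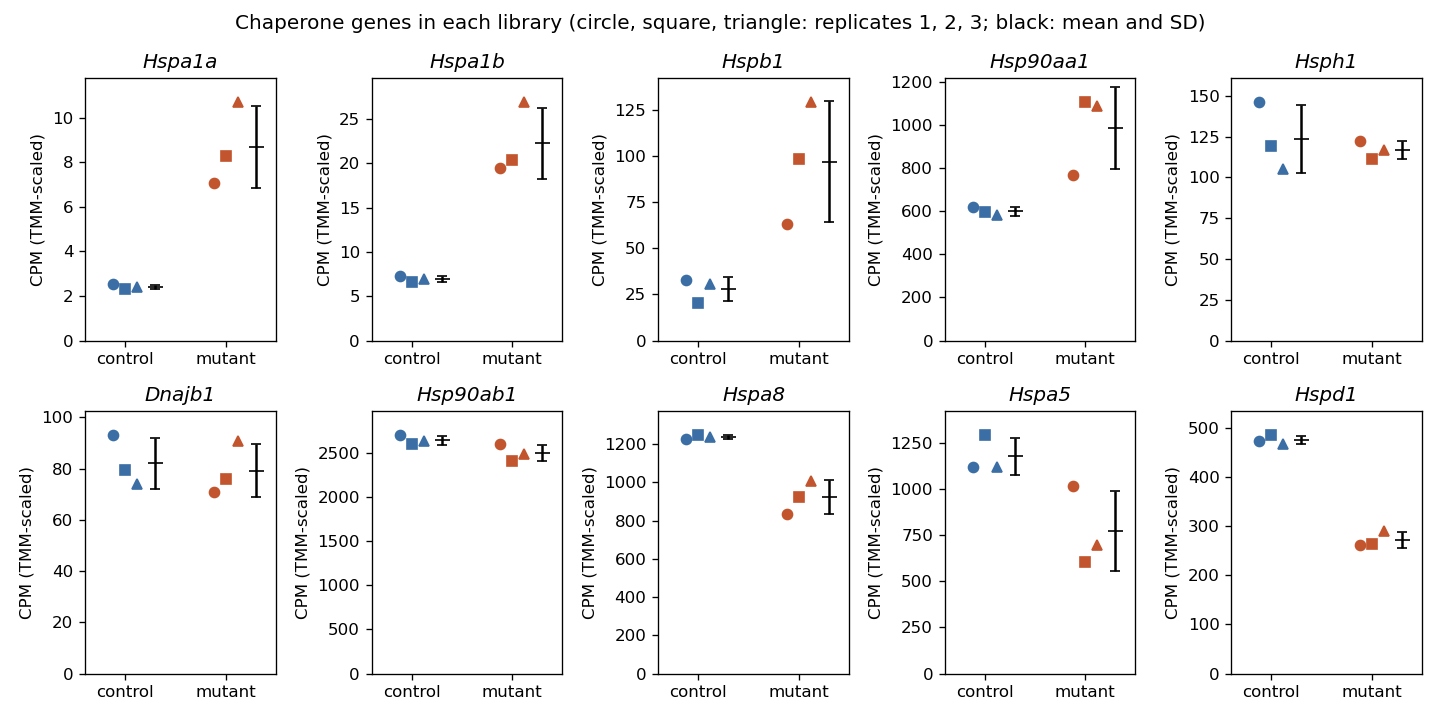
Level of each chaperone gene (vertical axis, TMM-scaled CPM, starting at 0) in the 3 control and 3 mutant libraries, with a marker shape per replicate and the mean and SD in black. The mutants lie above all controls for Hspa1a, Hspa1b, Hspb1 and Hsp90aa1 and below all controls for Hsp90ab1, Hspa8, Hspa5 and Hspd1. Of all tested genes, 29.7% had every mutant above every control and 29.2% every mutant below.

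The inducible HSP70 genes rose from a low base. Hspa1a and Hspa1b encode almost the same stress-inducible cytosolic HSP70 from single-exon genes. Hspa1a lies at chr17:34969190-34972156 and Hspa1b at chr17:34956436-34959238, both on the minus strand (GENCODE M21, GRCm38) and 9951 bases apart. Hspa1a was at 2.52, 2.3 and 2.39 CPM in the controls, in the order of their replicate numbers, and at 7.09, 8.29 and 10.7 CPM in the mutants. The groups did not overlap, and mutant replicate 3 was the highest library. The group means were 2.4 ± 0.113 and 8.7 ± 1.85 CPM (SD over 3 libraries, as throughout), and the edgeR log2 fold change was 1.85 ± 0.2 (SE, adjusted p = 0.000601). Hspa1b was at 7.25, 6.56 and 6.96 CPM in the controls and at 19.5, 20.4 and 26.9 CPM in the mutants. The order of the mutants was the same as for Hspa1a, and edgeR gave a log2 fold change of 1.69 ± 0.16 (adjusted p = 0.000372).

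Reads of this pair cannot be fully assigned. Of the 50-base stretches of the Hspa1a transcript, 58.8% also occur in Hspa1b, and 62.3% of those of Hspa1b occur in Hspa1a. Hspa1b took 74.2%, 74% and 74.4% of the pair's counts in the controls and 73.4%, 71.1% and 71.5% in the mutants, so the division between them moved little. Added into 1 row, the pair was at 9.77, 8.86 and 9.35 CPM in the controls and at 26.6, 28.6 and 37.6 CPM in the mutants. The sum rose 3.32-fold (log2 fold change 1.73, SE 0.15, edgeR adjusted p = 0.000327). Gm20481, a gene on the opposite strand that overlaps Hspa1a, is not a row of the count tables, and its reads cannot be told apart from those of Hspa1a here.

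The constitutive HSP70 moved the other way. Hspa8 encodes HSC70, the abundant housekeeping HSP70 of the cytosol (chr9:40800984-40810087, plus strand). Its level was 1228, 1247 and 1239 CPM in the controls and 835, 926 and 1010 CPM in the mutants. The controls lay within a narrow band and every mutant was below it. Group means were 1238 ± 9.74 and 923 ± 87.5 CPM, and edgeR gave a log2 fold change of -0.42 ± 0.09 (adjusted p = 0.00871). With the level of Y-linked genes in each library as a covariate, Hspa8 was at -0.41 and no longer passed (adjusted p = 0.055). Of its 50-base stretches 52.7% also occur in other annotated genes, mostly processed copies such as Gm15459 that are not rows of the tables.

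Within each library the inducible pair therefore gained on the constitutive gene. The log2 ratio of Hspa1a plus Hspa1b counts to Hspa8 counts, which does not depend on library scaling, was -6.97, -7.14 and -7.05 in the controls and -4.97, -5.01 and -4.75 in the mutants. The mean ratio was 2.14 log2 units higher in the mutant, or 4.42-fold (exact permutation test over libraries, two-sided p = 0.1, the smallest that 3 against 3 allows). Leaving out any 1 library gave 2.06 to 2.2.

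**Figure D2:**
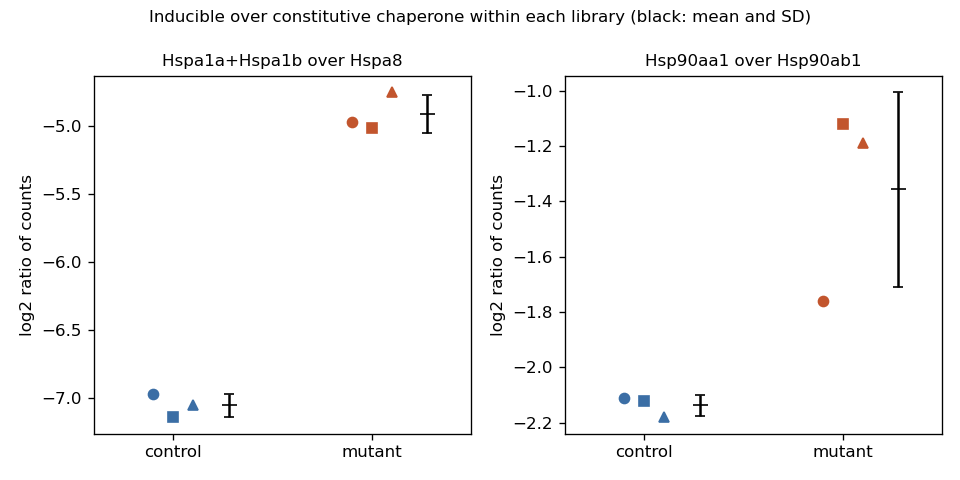
Log2 ratio of counts within each library (vertical axis) for Hspa1a plus Hspa1b over Hspa8, left, and Hsp90aa1 over Hsp90ab1, right, with a marker per replicate and the mean and SD in black. The mutants lie above the controls in both panels, by 2.14 and 0.78 on average, and mutant replicate 1 is the lowest mutant on the right.

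In the HSP90 pair the inducible gene rose and the constitutive one did not pass. Hsp90aa1, the stress-responsive cytosolic HSP90 (chr12:110690605-110702728, minus strand), was at 622, 598 and 581 CPM in the controls. It was at 766, 1106 and 1088 CPM in the mutants. All mutants exceeded all controls, with mutant replicate 1 nearest to them. The log2 fold change was 0.72 (SE 0.14, edgeR adjusted p = 0.00623), and with the Y-linked covariate it was 0.66 and did not pass (adjusted p = 0.0614). Hsp90ab1, the constitutive form (chr17:45567775-45573271, minus strand), was at 2696, 2593 and 2632 CPM in the controls and 2592, 2404 and 2488 CPM in the mutants. Every mutant was below every control by a narrow margin, but the log2 fold change of -0.08 (SE 0.09) did not pass (edgeR adjusted p = 0.479). Groups failed to overlap for 58.9% of all tested genes. The log2 ratio of Hsp90aa1 to Hsp90ab1 was -2.11, -2.12 and -2.18 in the controls and -1.76, -1.12 and -1.19 in the mutants, a difference of 0.78 (exact permutation test, two-sided p = 0.1, the smallest possible). Of the Hsp90aa1 transcript 58.5% of 50-base stretches occur in other genes, led by Gm12346, against 4.5% for Hsp90ab1.

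Hspb1 rose as well. It encodes HSP25, the small heat shock protein that binds unfolding clients and actin (chr5:135887919-135889563, plus strand). The controls were at 32.8, 20.2 and 30.6 CPM and the mutants at 63.3, 98.2 and 129 CPM. The groups did not overlap, control replicate 2 was the lowest library and mutant replicate 3 the highest. The mean went from 27.9 ± 6.72 to 96.8 ± 32.9 CPM, which edgeR put at a log2 fold change of 1.8 ± 0.28 (adjusted p = 0.00229). Hspb1 is also strongly used in stratified epithelium, and the epithelial markers given above were higher in the same 3 libraries, whose part in this rise was not tested. Of its 50-base stretches 51.6% occur in Hsp25-ps1, a copy that is not a row of the tables.

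Hspd1 and Hspa5, the organelle chaperones among the 10 genes, were both called lower. Hspd1, the HSP60 chaperonin of the mitochondrial matrix (chr1:55077835-55088243, minus strand), was at 475, 486 and 469 CPM in the controls and 263, 264 and 291 CPM in the mutants. Both groups were tight and well apart. The log2 fold change was -0.81 (SE 0.07, edgeR adjusted p = 0.000338), and it lay between -0.87 and -0.74 and passed in all 17 alternative fits. Its partner Hspe1, which encodes the HSP10 lid of the same chaperonin and overlaps it head to head on the opposite strand, had the same value of -0.81 (SE 0.1, edgeR adjusted p = 0.001). Without strand information in the sources used here, reads in the overlap of both genes cannot be told apart.

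Hspa5 encodes BiP, the HSP70 of the endoplasmic reticulum (chr2:34771970-34777547, plus strand). It was at 1120, 1294 and 1124 CPM in the controls and at 1021, 606 and 700 CPM in the mutants. Mutant replicate 1 lay near the controls, and mutant replicates 2 and 3 lay well below. The log2 fold change was -0.6 (SE 0.19, edgeR adjusted p = 0.0354). This call was the least secure of the 7. It was lost in 7 of 17 alternative fits, among them those without control replicate 2 (-0.53, adjusted p = 0.0986) or control replicate 3 (-0.64, adjusted p = 0.0662). The value was -0.45 without mutant replicate 2 and -0.54 without mutant replicate 3, at adjusted p = 0.101 and 0.113. With replicate 1 of each group left out, the value was -0.9.

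Dnajb1 and Hsph1, both strongly heat-inducible in other settings, did not pass. Dnajb1, the J-domain partner of inducible HSP70 (chr8:83608193-83612653, plus strand), was at 93, 79.4 and 73.8 CPM in the controls and 70.7, 75.9 and 90.6 CPM in the mutants. The groups overlapped over nearly their whole range (log2 fold change -0.05, SE 0.12, edgeR adjusted p = 0.746). Hsph1, the HSP110 that recharges HSP70 (chr5:149614287-149636376, minus strand), was at 146, 119 and 105 CPM in the controls and 122, 111 and 117 CPM in the mutants. The mutants fell inside the span of the controls (-0.08, SE 0.12, edgeR adjusted p = 0.607). Neither was called in any of the 17 alternative fits, where Dnajb1 ranged from -0.17 to 0.11 and Hsph1 from -0.23 to 0.04.

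**Figure D3:**
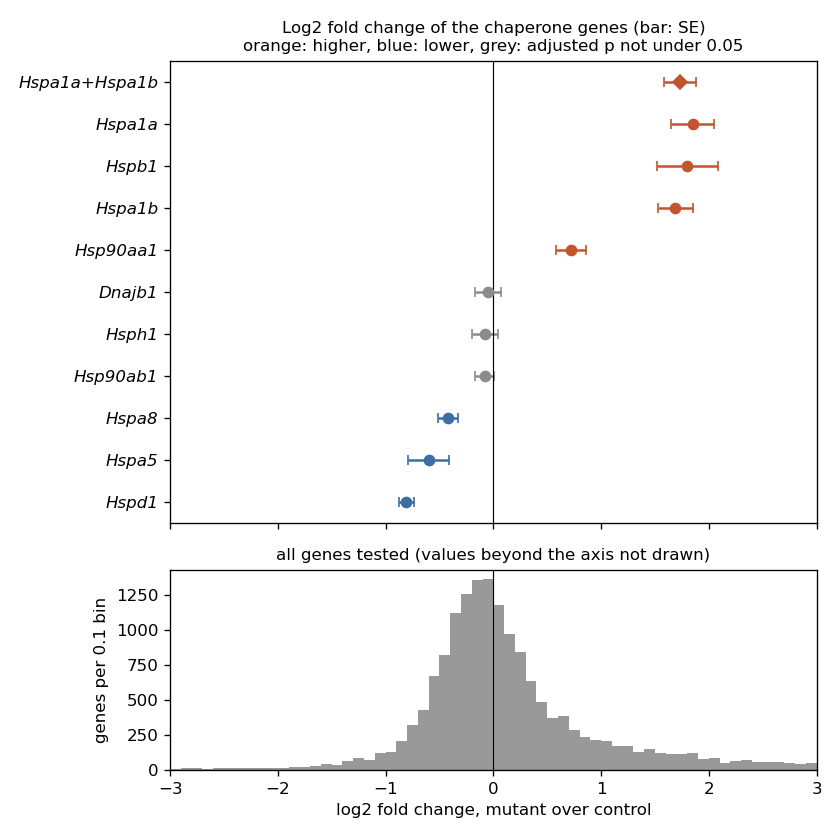
Log2 fold change of mutant over control (horizontal axis) for the 10 chaperone genes and the summed Hspa1a and Hspa1b row, with bars for the SE, above a histogram of all 16604 genes tested. Hspa1a, Hspb1 and Hspa1b lie between 1.69 and 1.85, Hsp90aa1 at 0.72, and the genes that fell between -0.81 and -0.42.

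Per kilobase of transcript the order of the genes spans a wide range. Lengths were not corrected for 50-base stretches shared with other genes, and how such reads were counted is not stated. Shared stretches made up 44.8% to 66.3% of Hspa1a, Hspa1b, Hspa8, Hsp90aa1, Hspb1 and Hspd1, and at most 4.5% of the rest. Levels of different genes may therefore not be fully comparable. In the controls it ran from Hsp90ab1 at 1048 ± 20.6 CPM per kb through Hspa8 at 392 ± 3.09, Hspa5 at 321 ± 27.1, Hspd1 at 197 ± 3.44 and Hsp90aa1 at 183 ± 6.4 (SD, n = 3). Hspb1 at 30 ± 7.23, Dnajb1 at 27.4 ± 3.29 and Hsph1 at 25.9 ± 4.36 CPM per kb followed, and neighbours among these 3 overlapped. Hspa1b at 2.47 ± 0.123 and Hspa1a at 0.81 ± 0.0381 CPM per kb were last. In the mutants Hsp90ab1 was still first at 990 ± 37.5 CPM per kb. Hsp90aa1 at 301 ± 58.2 CPM per kb now overlapped Hspa8 at 292 ± 27.7, and Hspb1 at 104 ± 35.3 overlapped Hspd1 at 113 ± 6.6. Hspa1b at 7.94 ± 1.44 and Hspa1a at 2.93 ± 0.625 CPM per kb remained last.

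The wider chaperone network was followed in lists that hold none of the 10 genes. All 8 subunits of TRiC, the cytosolic chaperonin that folds actin and tubulin, fell, against 21.7% of all tested genes, with a list median of -0.42. Cct8 went from 384 ± 11.9 to 251 ± 11.6 CPM (-0.61, SE 0.07) and Cct3 from 395 ± 21.2 to 262 ± 10.9 CPM (-0.59, SE 0.07), with Cct5 at -0.46 and Cct4 at -0.41. EdgeR adjusted p for these 4 lay between 0.000612 and 0.00282. Leaving out any 1 library left 6 to 8 subunits called lower, where 15.4% to 21.6% of all genes were, and none was called higher.

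Of 19 co-chaperones of HSP90 and HSP70, 11 fell, 1 rose and 7 did not pass, with a median of -0.29. Across all tested genes 21.7% were called lower and 24.1% higher. Ppid, a cyclophilin bound to HSP90, fell from 135 ± 4 CPM to 92.8 ± 2.55 CPM, or by 0.54 on the log2 scale (SE 0.06, edgeR adjusted p = 0.000574). Ahsa2, a relative of the HSP90 ATPase activator (-0.7, SE 0.11), Bag1, a nucleotide exchange factor of HSP70 (-0.44, SE 0.07), and Cdc37, which brings kinases to HSP90 (-0.41, SE 0.07), also fell. The member that rose was Bag3, a stress-inducible partner of HSP70 and small heat shock proteins, named after its values were seen. It went from 46.9 ± 6.35 to 60.6 ± 5.35 CPM (0.37, SE 0.12, edgeR adjusted p = 0.0362). Without control replicate 1 or 3, or without any 1 of the mutants, no co-chaperone was called higher.

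Among 15 cytosolic and nuclear J-domain genes, 8 fell, 3 rose and 4 did not pass (median -0.26). The shares of all tested genes were 21.7% lower and 24.1% higher. Dnajc9, a histone chaperone of dividing cells, fell from 151 ± 6.62 to 87.1 ± 5.91 CPM (-0.8, SE 0.07). Dnajc2, which works at the ribosome, fell by 0.57 on the log2 scale and Dnajc7 by 0.51. Dnaja4 was the largest riser, at 11.5, 12.3 and 11.9 CPM in the controls and 30.5, 50 and 49.8 CPM in the mutants (1.87, SE 0.19, edgeR adjusted p = 0.000506).

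Of 10 other HSP70 and HSP110 genes, 2 rose, 4 fell and 4 did not pass (median -0.14). For all tested genes the shares were 24.1% higher and 21.7% lower. Hspa4l, an HSP110 relative best known from testis, was at 8.08, 11.7 and 18.1 CPM in the controls and 90.9, 114 and 98.4 CPM in the mutants, which is a log2 difference of 2.99 (SE 0.28, edgeR adjusted p = 0.00039). It exceeded every one of the 10 chaperone genes in size of change. Hspa2, a testis-rich HSP70, rose from 8.33 ± 2.38 to 33.4 ± 3.32 CPM (2, SE 0.22). Hspa9, the mitochondrial HSP70, fell (-0.42, SE 0.07), as did Hspa14, an atypical HSP70 of the ribosome (-0.44, SE 0.08).

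Of 6 tested small heat shock protein genes beside Hspb1, 2 rose and none fell (median 0.57, Hspb3 being too low to test). That count lay near the 24.1% of all tested genes called higher. Hspb8, the partner of Bag3, went from 31.3 ± 8.55 to 74 ± 3.55 CPM (1.24, SE 0.19) and Cryab, alpha-B crystallin, from 8.57 ± 2.73 to 23.2 ± 3.49 CPM (1.43, SE 0.26). EdgeR adjusted p was 0.00223 and 0.00382. The heat shock factors did not pass in the first edgeR fit. None of the 5 genes of that list was called by edgeR without further correction, by DESeq2 or by limma-voom, and 0 had an unadjusted edgeR p under 0.05. With GC and length offsets, and again without replicate 1 of both groups, edgeR called 1 of them lower. Hsf1, the master regulator, named after its values were seen, was at 52.5 ± 1.24 and 53.2 ± 2.8 CPM (0.02, SE 0.07). Hsbp1, which binds HSF1, was at -0.14 (SE 0.06, edgeR adjusted p = 0.104) and Hsf2 at -0.15 (SE 0.09, edgeR adjusted p = 0.22).

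In mitochondria, against 21.7% of all tested genes, 6 of 10 chaperone and protease genes fell and none rose (median -0.34). They included Hspe1 and Hspa9, which the HSP70 list also holds, Dnajc19, a J-domain protein of the import motor (-0.79, SE 0.12), and Clpx, the unfoldase of the matrix protease (-0.43, SE 0.07). In the endoplasmic reticulum, 8 of 22 genes fell, 1 rose and 13 did not pass (median -0.33). Among all tested genes 21.7% fell and 24.1% rose. Pdia6, a disulfide isomerase, was at 634, 721 and 662 CPM in the controls and 467, 311 and 404 CPM in the mutants (-0.77, SE 0.15, edgeR adjusted p = 0.00493). Manf (-0.8, SE 0.2), Dnajb11, a J-domain partner of BiP (-0.5, SE 0.13), and Atf4, a transcription factor of the stress response (-0.37, SE 0.1), also fell.

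The summed level of the endoplasmic reticulum list, to which a few abundant genes contribute most, was 6641, 7949 and 7470 CPM in the controls and 7121, 4980 and 5426 CPM in the mutants. In this sum mutant replicate 1 sat inside the control range, and mutant replicates 2 and 3 were below it. The members were not alike in this. Counted after their values were seen, 6 of 22 (Hsp90b1, Calr, Canx, Pdia4, Creld2 and Edem1) had mutant replicates 2 and 3 below every control and replicate 1 not, a layout that 5.75% of all tested genes showed. In 10 of 22 all mutants were below all controls, as for Hspa5 and for 29.2% of all tested genes. Hsp90b1, the HSP90 of this compartment, was at 1208, 1367 and 1313 CPM in the controls and 1358, 884 and 927 CPM in the mutants, whereas Dnajc10, also named after its values were seen, was lowest in mutant replicate 1 (168 CPM, against 197 and 191 CPM). The number called lower was 7 without control replicate 1 and 12 without mutant replicate 1, where 21.5% and 21.6% of all genes were called lower. It was 3 without control replicate 2 (16.1% of all genes), 5 without control replicate 3 (16.8%), 4 without mutant replicate 2 (15.4%) and 2 without mutant replicate 3 (17.2%), so most of these counts lay near the share of all genes. With replicate 1 left out of both genotypes 17 of 22 were called lower, where 26.8% of all genes were called lower, and 0 with the Y-linked covariate (3 genes of the list at an unadjusted p under 0.05), where 13.9% of all genes were called lower. For TRiC and the mitochondrial list every mutant sum was below every control sum, at 2033 to 2180 against 2791 to 3006 CPM and 802 to 869 against 1036 to 1061 CPM. This was not particular to them. It also held for the 10 chaperone genes and the lists of other HSP70 and HSP110 genes, J-domain genes, co-chaperones and heat shock factors. Sums of the other small heat shock proteins were higher in every mutant.

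**Figure D4:**
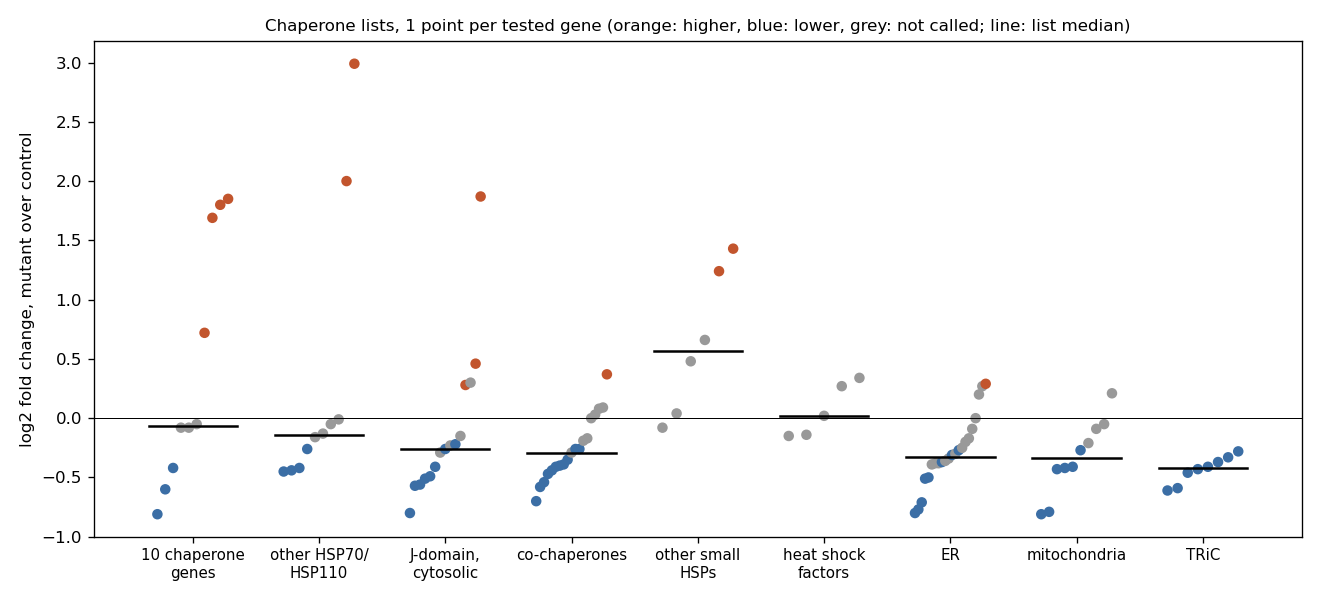
Log2 fold change of mutant over control (vertical axis) for each tested gene of the 10 chaperone genes and 8 further chaperone lists, with a line at each list's median. All 8 TRiC subunits lie below 0, and the points above 1 are the inducible HSP70 pair, Hspb1, Hspa4l, Hspa2, Dnaja4, Hspb8 and Cryab.

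Immediate early genes, another group that responds to handling and injury of tissue, were called about as often as all genes. Of 14, 4 rose, 2 fell and 8 did not pass (median 0.19), beside 24.1% of all tested genes higher and 21.7% lower. Zfp36 (1.2, SE 0.16), Junb (0.95, SE 0.15) and Ier3 (1.25, SE 0.22) rose, and Egr2 fell (-2.45, SE 0.5), with edgeR adjusted p from 0.00133 to 0.00666.

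Among 9679 genes with an average log2 CPM of at least 4, those whose centred log2 CPM lay closest to the summed Hspa1a and Hspa1b row over the 6 libraries were Gcnt2, Dock8, Tmem79, Lrrc56 and Emb. Their root mean square differences from it were 0.106, 0.116, 0.128, 0.138 and 0.141 log2 units. Gcnt2 was at 9.15, 8.75 and 9.32 CPM in the controls and 26.8, 28.6 and 30.8 CPM in the mutants. Dock8 was at 12.3, 11 and 13.7 CPM in the controls and 39.6, 39.3 and 45.7 CPM in the mutants. Tmem79 was at 10.6, 7.25 and 8.68 CPM in the controls and 26.6, 29.2 and 37.3 CPM in the mutants. Lrrc56 was at 16.5, 14.2 and 17.8 CPM in the controls and 45.4, 55.9 and 55.6 CPM in the mutants. Emb was at 24, 20.4 and 27.8 CPM in the controls and 74.4, 85.3 and 95.4 CPM in the mutants. Why these genes shared the layout was not tested.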

How the data were processed

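RNA was measured in 6 libraries, grouped by title and genotype label. Each library has 1 deposited table of read counts by gene symbol, as whole numbers. HISAT2, StringTie and the builds mm9 and mm10 are named per the submitters' processing notes, and 4 column names mention HISAT2 per the file headers. The counting tool, strand setting and annotation are not stated in the sources used here.

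The deposited counts went into edgeR 4.0.16 (R 4.3.3) unchanged, with filterByExpr by group, TMM scaling and the quasi-likelihood F test with no covariate. Adjusted p is Benjamini-Hochberg over all tested genes, with a threshold of 0.05. The SE is the size of the log2 fold change over the root of the F statistic. Gene levels are CPM with TMM scaling, and per-kilobase levels use the longest coding transcript of GENCODE M21, to which 98.4% of 23420 symbols were matched. Within groups, no pair of libraries agreed within sampling noise (chi-square over its degrees of freedom, 16.1 to 146.2).

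The members, lists and alternatives were chosen with earlier results of these data known. All 10 members are named, then up to 4 called genes of each list with the smallest p, or 2 where none was called. For the summed Hspa1a and Hspa1b row, the 5 genes nearest in pattern are named. Other genes were named after their values were seen, as the text says. Alternatives used RLE factors, library size only, offsets for GC content and length, other filters, DESeq2 1.42.0, limma-voom 3.58.1, counts thinned to equal depth, a replicate block, a Y-linked covariate and omitted libraries. The test was run on simulated counts of 16604 genes, 200 of them changed. It found 25.5% of those changed 1.5-fold, 64% of those changed 2-fold and 80% of those changed 4-fold, and 8.1% of its calls were false. Far more genes, 7606, were called in the data, so these rates may not hold for the fit used here.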

Additional observations from a re-analysis of the deposited data

How the results depend on the processing

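The calls of Hspa1a, Hspa1b, their sum, Hspb1, Hspd1 and Shox2 held in all 17 alternative fits, and those of Hspa8 and Hsp90aa1 in 16. With the Y-linked covariate Hspa8 (-0.41), Hspa5 (-0.44, adjusted p = 0.236) and Hsp90aa1 (0.66) were not called, and 1 of the 10 genes was called lower. That fit called 2314 of all genes lower, 5 J-domain genes lower and 0 endoplasmic reticulum genes lower. Y-linked genes are carried by male embryos, and the labels used here name no sex. Their summed level, as log2 of CPM plus 1, was 7.57, 5.16 and 6.44 in the controls and 7.69 to 7.97 in the mutants. Every mutant was above every control, so this level and the genotype cannot be fully told apart. Hspa5 was not called with library size only (-0.53, adjusted p = 0.0556) or with GC and length offsets (-0.53, adjusted p = 0.0502). Without 1 library Hspa5 lay between -0.85 and -0.45, Hsph1 between -0.19 and 0.04 and Dnajb1 between -0.16 and 0.03. Dnajb1 was at 0.01 with library size only, and without replicate 1 of both groups Dnajb1 was at 0.11 and Hsph1 at 0.01. The causes were not tested. With library size only, 2 endoplasmic reticulum genes were higher and 5 lower, and 1 mitochondrial gene was higher. Endoplasmic reticulum genes called higher also numbered 2 with the 1 CPM filter, DESeq2 or thinned counts. No co-chaperone was called higher with GC and length offsets or the replicate block. Of the heat shock factor list, which also holds Hsbp1, 1 gene was lower with those offsets or without replicate 1 of both groups. In the latter fit 17 endoplasmic reticulum genes were lower. Leaving out 1 library gave 0 to 1 co-chaperones higher, 0 to 1 and 2 to 12 endoplasmic reticulum genes higher and lower, and 0 to 1 mitochondrial genes higher. Same-numbered libraries of the groups deviated together only weakly (correlations across genes of 0.081, 0.082 and 0.02, with control replicate 3 nearer to mutant replicate 2 at 0.048), so the numbers were not taken as pairs. With the replicate block 3720 genes were called higher and 3302 lower, and the 10 genes were called as before, 4 higher and 3 lower. Hspa1a rested on 204 to 576 counts per library, the fewest of the 10.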
